A study of Mus musculus with 8 samples.

Results

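The 78 genes described here encode proteins of the cytosolic ribosome or close paralogs of them, measured in spleen RNA of miR-155 knockout and wild-type mice. They were taken by symbol, from the Rpl and Rps names of the array's annotation with the stalk genes Rplp0, Rplp1 and Rplp2 and with Rpsa, and without the S6 kinase genes. Of 24203 genes named on the array, these 78 comprise 29 small-subunit (40S) and 49 large-subunit (60S) genes, counting each paralog with its subunit. They are covered by 172 features, a feature being 3 probes summarised to 1 value, and each gene is represented by the feature with the highest mean signal over the arrays. Rps10, Rps16 and Rps26 were not analysed here.

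Total RNA of 8 spleens was labelled with Cy3 and hybridised to 8 one-colour NimbleGen arrays. The knockout group held the spleens Mim1-5 and Mim1-6, labelled female, and Mim2-2 and Mim2-3, labelled male. The wild-type group held WT-1 and WT-3, labelled female, and WT-2 and WT-4, labelled male. Per the design text the spleens were separate, and 1 array stands for 1 animal. Strain, age, treatment and the make of the knockout allele are not given in the sources used here.

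A ribosome joins a small subunit, which reads the messenger RNA, to a large subunit, which forms the peptide bonds, and most ribosomal proteins occur in a ribosome as a single copy. Because the proteins are needed in equal amounts, their genes are held in step, largely through translation: most of their mRNAs begin with a run of pyrimidines, the 5′ terminal oligopyrimidine (TOP) motif, by which the kinase mTOR and the RNA-binding protein Larp1 control how much of them is translated. In spleen, lymphocytes that meet antigen raise ribosome production as they grow, and shortage of single ribosomal proteins in people impairs red cell formation, as in Diamond-Blackfan anaemia.

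The start sites below are shown because the pyrimidine run is the sequence feature that many of these genes share, and 3 paralogs of low signal are set beside them. RefSeq promoter entries of mouse build GRCm38.p6 were matched for 57 of the 78 genes. Each line gives 8 bases before the annotated start and 20 from the start on, 5′ to 3′ along the gene, with the run of 6 or more C or T, beginning with C, in capitals. The first 5 genes are among those of highest signal with a run that begins within 3 bases of the start, and the last 3 are paralogs.
Rpl13a, chr7:45128726-45128753, minus strand: tgcgacaagaCCTCCTCCTTTCCCaggc
Rps6, chr4:86857348-86857375, minus strand: agtcgggCCTCTTTTTCgtgacgcctcc
Rpl18, chr7:45718063-45718090, plus strand: cgcaggccgCTCTTTCCCCgcccactcc
Rpl12, chr2:32961704-32961731, plus strand: caggatccgtCTTTTCggctttcggctc
Rps24, chr14:24490670-24490697, plus strand: tggggtCCTTCCTTgcgcgttgatatga
Rpl39l, chr16:10170220-10170247, plus strand: gCCTTTCCggatttccggtggtcgccat
Rpl10l, chr12:66284382-66284409, minus strand: tccattttgcggctggcggtgggcacgc
Rpl3l, chr17:24727818-24727845, plus strand: ctagctctgtcatttgacctctggtgcc

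The runs lie at the start in the first 5 genes, with 14 pyrimidines in Rpl13a, 10 in Rps6 and Rpl18, 8 in Rps24 and 6 in Rpl12. Rpl39l has a run of 7 that begins 7 bases before its start, and Rpl10l and Rpl3l have none of 6. The paralog Rps27l, not shown, has a run of 9 that begins 12 bases before its start. A run of 6 or more beginning within 15 bases of a start was found in 35 of the 57 genes (61.4%), against 29.5% of 27025 genes with an entry. In the whole 300-base entry, 250 bases before to 50 from the start, the letters CGGAAG on either strand, the core that ETS factors such as GABP bind, were found in 68.4% of the 57 genes and in 18.8% of all genes. ATGGCG, part of the motif of the factor YY1, was found in 33.3% against 10.2%. TATAAA, the TATA box letters, was found in 10.5% against 15.7%, and CACGTG, the E-box that MYC binds, in 10.5% against 8.09%. These counts overlap, since an entry can hold several of the motifs and 10 of the 57 genes have several starts. The median knockout minus wild type difference was 0.09 on the log2 scale in the genes with a pyrimidine run and 0.14 in the genes without one.

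On the arrays, the ribosomal protein genes sat near the top of the signal scale in both genotypes. The median gene had a mean log2 intensity of 14.69, at the 99.39th percentile of the named genes, while the quartiles of all genes lay between 5.53 and 9.31 on single arrays. In all, 64 of the 78 genes had a mean of 14 or more and 22 had 15 or more. They made up 28 of the 100 and 69 of the 500 genes with the highest signal. Signals of different features depend on their probes, so these ranks place the genes on the array's scale and do not order the amounts of their mRNAs.

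Rpl41, whose product is the smallest protein of the large subunit, had the highest mean signal of any gene. It read 15.97, 15.87, 15.94 and 15.90 in Mim1-5, Mim1-6, Mim2-2 and Mim2-3, and 15.99, 15.88, 15.76 and 15.86 in WT-1 to WT-4. The genotypes overlapped, and Rpl41 had the smallest spread of the 78 genes, with an SD of 0.07 over the 8 arrays. The highest signal of any gene lay between 15.84 and 15.99 on every array, so Rpl41 sat at the ceiling that these arrays reached. On single arrays 17 to 31 of the ribosomal protein genes were within 1 log2 unit of that ceiling. No saturation flag was used here.

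**Figure D1:**
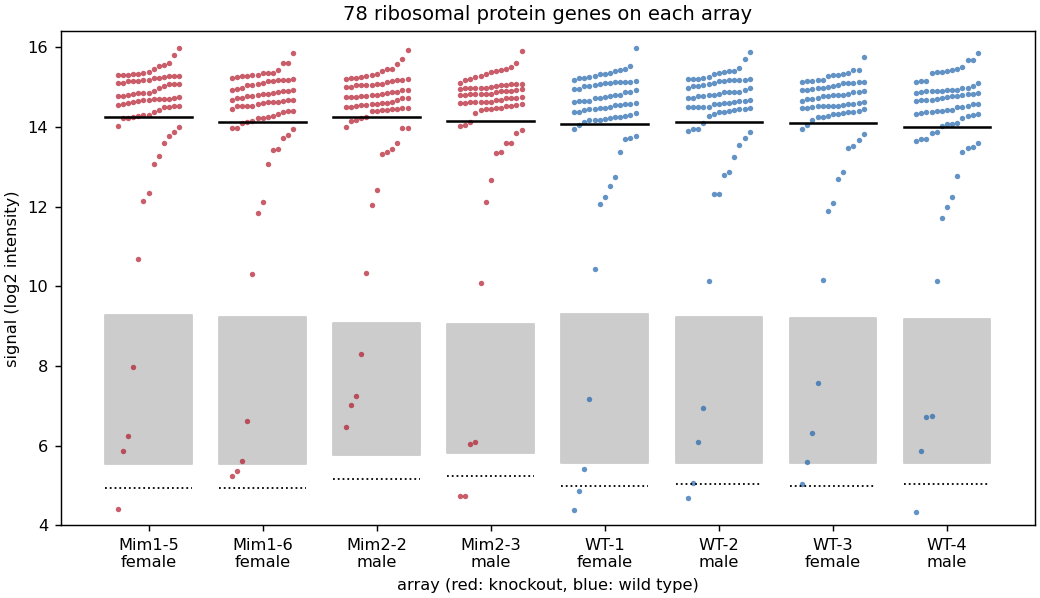
Signal of the 78 ribosomal protein genes (points, log2 intensity) on each of the 8 arrays, with their mean (black line), the interquartile range of all named genes (grey) and the random probes (dotted). The means lie between 14.01 and 14.24, and the 4 genes with a mean under 8 fall into or below the grey range.

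Paralogs with a restricted tissue range were the low end of the family. Rpl3l, the paralog of Rpl3 used in skeletal and heart muscle, had a mean of 5.85, Rpl10l, which replaces Rpl10 in male germ cells, 5.98, and Rpl39l, also known from testis, 6.12. Random probes, the background of the array, read 4.94 to 5.24. Rpl10l was above them on 3 of 4 knockout arrays and 1 of 4 wild-type arrays. Its values were 7.97, 5.36, 8.29 and 4.74 in the knockout and 4.85, 4.69, 7.58 and 4.34 in the wild type. Both groups held high and low arrays, and the difference of 1.22 ± 0.93 (SE, n = 4 per genotype) did not pass (limma, adjusted p = 0.577). Rps27l, a p53-responsive paralog of Rps27, stood between these and the rest at 10.28. Rpl24, Rpl37 and Rpl27 had means between 12 and 13.

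Most ribosomal protein genes varied little between spleens. The median SD over the 8 arrays was 0.19, against 0.61 for all named genes and 0.27 for 404 other genes with a mean of 13 or more. Of the 78 genes, 66 had an SD under 0.3. Signals near the ceiling can vary less for that reason alone, and its part was not tested. In signal bands, the median SD was 0.22 for the 6 genes from 13 to under 14, 0.19 for the 42 from 14 to under 15 and 0.17 for the 22 at 15 or more. The size of the genotype difference went the same way, with medians of 0.26, 0.14 and 0.06 regardless of sign. WT-4 held the lowest value of 25 of the 78 genes and Mim1-5 the highest value of 17.

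Across all genes the arrays of Mim2-2 and Mim2-3 stood apart. Over 44170 features they correlated with the other 6 at r = 0.811 to 0.877, against 0.911 to 0.943 among those 6. Over the 70 ribosomal protein genes of mean 13 or more these ranges were 0.805 to 0.895 and 0.759 to 0.915. BIC, the host transcript of miR-155 on chromosome 16, read 4.84 to 5.63 on 7 arrays and 7.51 in Mim1-5; where its probes lie relative to the deletion is not known, so it checks nothing about the knockout. The X inactivation transcript Xist read 8.35 to 11.10 on all 8 arrays, and the mean of the Y-linked gene Ddx3y was 7.82 over the female and 7.76 over the male arrays by label. By genotype, Ddx3y read 8.39 to 8.83 in the knockout and 6.26 to 7.33 in the wild type. The Y-linked Eif2s3y read 8.60 to 9.39 and 7.15 to 8.27, so both were apart by genotype and not by labelled sex. Another Y-linked gene, Kdm5d, read 7.86, 8.09, 8.13 and 8.92 in the knockout and 7.72, 8.69, 6.76 and 6.66 in WT-1 to WT-4. It overlapped by genotype and by label, with means of 7.61 over the female and 8.10 over the male arrays. "Male" and "female" therefore stand for the labels only.

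No ribosomal protein gene differed between knockout and wild-type spleen after adjustment. limma, with sex as a term and Benjamini-Hochberg adjustment over all features, called 0 of 44170 features (0% called) and so 0 of the 78 genes. At an unadjusted p under 0.05, 1 of the 78 genes was higher in the knockout, where 7.7% of all named genes and 4.95% of 404 other genes of mean signal 13 or more were, and 0 were lower, where 6.61% and 6.44% were. In direction, 55 genes were higher and 23 lower, with 53.9% of all genes higher. The median difference was 0.09 on the log2 scale, with quartiles of -0.02 and 0.21, against a median of 0.06 for all named genes and 0.08 for those 404. After quantile normalization the split was 43 higher among the 78, and the median 0.02.

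**Figure D2:**
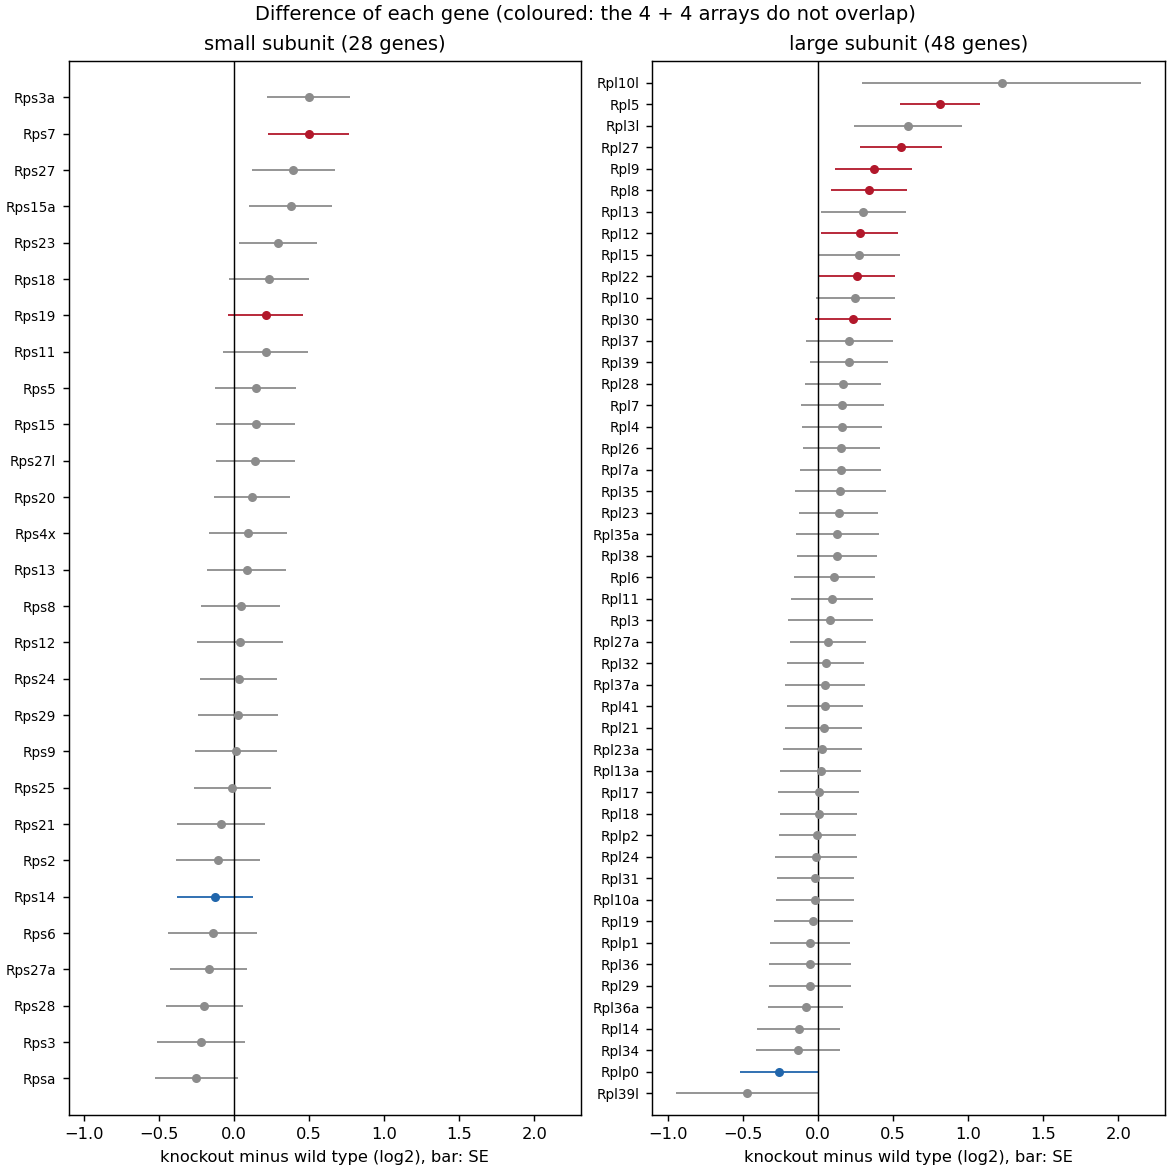
Knockout minus wild type difference (log2, point) and its SE (bar) for 28 of the 29 small-subunit and 48 of the 49 large-subunit genes; red and blue mark genes whose 4 knockout and 4 wild-type arrays do not overlap, higher and lower. All but 4 of the genes drawn lie within 0.5 of 0, and Rpl10l and Rpl5 lie farthest to the right.

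The mean signal of the 78 genes was 14.24, 14.13, 14.24 and 14.16 on the knockout arrays and 14.06, 14.12, 14.10 and 14.01 on the wild-type arrays. The group means were 14.19 ± 0.06 and 14.07 ± 0.05 (SD, n = 4 each), and the lowest knockout array and the highest wild-type array all but met. On the linear scale the genes held 8.07% to 8.51% of the summed signal of all genes' representative features in the knockout and 7.84% to 8.21% in the wild type, so these ranges overlapped. In bulk spleen, fewer cells of a type and less RNA per cell cannot be told apart.

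Marker genes of single cell types and of other tissues were compared between the genotypes too, and 0 of them passed adjustment. Of all named genes, 53.9% were higher in the knockout and 46.1% lower. The summed signals given below overlapped between the genotypes for the erythroid, macrophage, proliferation, and adipose and muscle lists. They did not overlap for the T cell, B cell, mammary epithelium and pancreas lists. All 10 T cell genes and 9 of 10 B cell genes were higher in the knockout, with linear signals summing to 6724 to 11512 against 4715 to 6484 for T cells and 12097 to 21739 against 4469 to 7475 for B cells. Of 15 mammary epithelium genes 14 were lower, at 8890 to 87786 against 112370 to 129096. Of 12 pancreas genes 10 were higher, at 3007 to 5983 against 796.3 to 1008. Of 9 erythroid genes 8 were lower, at 84822 to 129238 against 95534 to 111386, and of 8 red pulp macrophage genes 7 were higher, at 11886 to 19944 against 9217 to 12550. All 10 proliferation genes were lower, at 6828 to 15777 against 12044 to 19289. Of 9 adipose and muscle genes 7 were higher, at 2850 to 31238 against 3294 to 7507. Their sums were 2850 and 3782 on the Mim1 arrays, and 31238 and 19543 on the Mim2 arrays. Within labelled females 2 of these 9 were higher, and within labelled males all 9. By labelled sex, female then male, the median difference was -0.32 and 1.59 for this list and -0.29 and -3.37 for mammary epithelium. It was -0.21 and -1.06 for proliferation, and -1.18 and -0.09 for erythroid genes. The T cell, B cell, pancreas and macrophage medians were positive in both. No gene of these lists was below the random probes on all 8 arrays. On at least 1 array, 6 of the 12 pancreas, 3 of the 15 mammary epithelium, 2 of the 9 adipose and muscle and 1 of the 10 proliferation genes were. The pancreas genes had a mean log2 signal of 5.91 over the wild-type arrays, close to the random probes. The part of the marker genes in the differences of the ribosomal protein genes was not tested.

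Rpl5, which with Rpl11 and the 5S ribosomal RNA forms a particle that binds MDM2 and so links ribosome assembly to p53, had the lowest p among the 78 genes. Its feature covers chromosome 5 from 108329608 to 108337069 in build MM9. It read 13.58, 13.46, 13.32 and 13.35 in Mim1-5, Mim1-6, Mim2-2 and Mim2-3, and 12.74, 12.78, 12.70 and 12.25 in WT-1 to WT-4. Every knockout array lay above every wild-type array. The difference was 0.81 ± 0.27 (SE), or 1.76-fold, and did not pass (limma, unadjusted p = 0.0133, adjusted p = 0.291). It was 0.80 in the animals labelled female and 0.82 in those labelled male. Rpl11, the partner of Rpl5 in the particle, read 15.80, 15.18, 15.46 and 15.39 in the knockout and 15.35, 15.24, 15.44 and 15.45 in the wild type. The groups overlapped, with a difference of 0.09 ± 0.27.

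Without adjustment or model, 10 of the 78 genes had all 4 knockout arrays above all 4 wild-type arrays and 2 had all 4 below. Over all named genes such separation was found in 5.27% upward and 2.55% downward, and over the 404 other genes of high signal in 14.4% and 5.45%. The 10 included Rpl5, Rpl27, Rps7, Rpl9, Rpl8, Rpl12, Rpl22, Rpl30 and Rps19, and the 2 were Rplp0 and Rps14. The count of 10 was 5 after quantile normalization, 16 without both Mim2 arrays and 17 without WT-3, and the count of 2 was 1 with the mean of all features of a gene and 4 without Mim1-5.

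**Figure D3:**
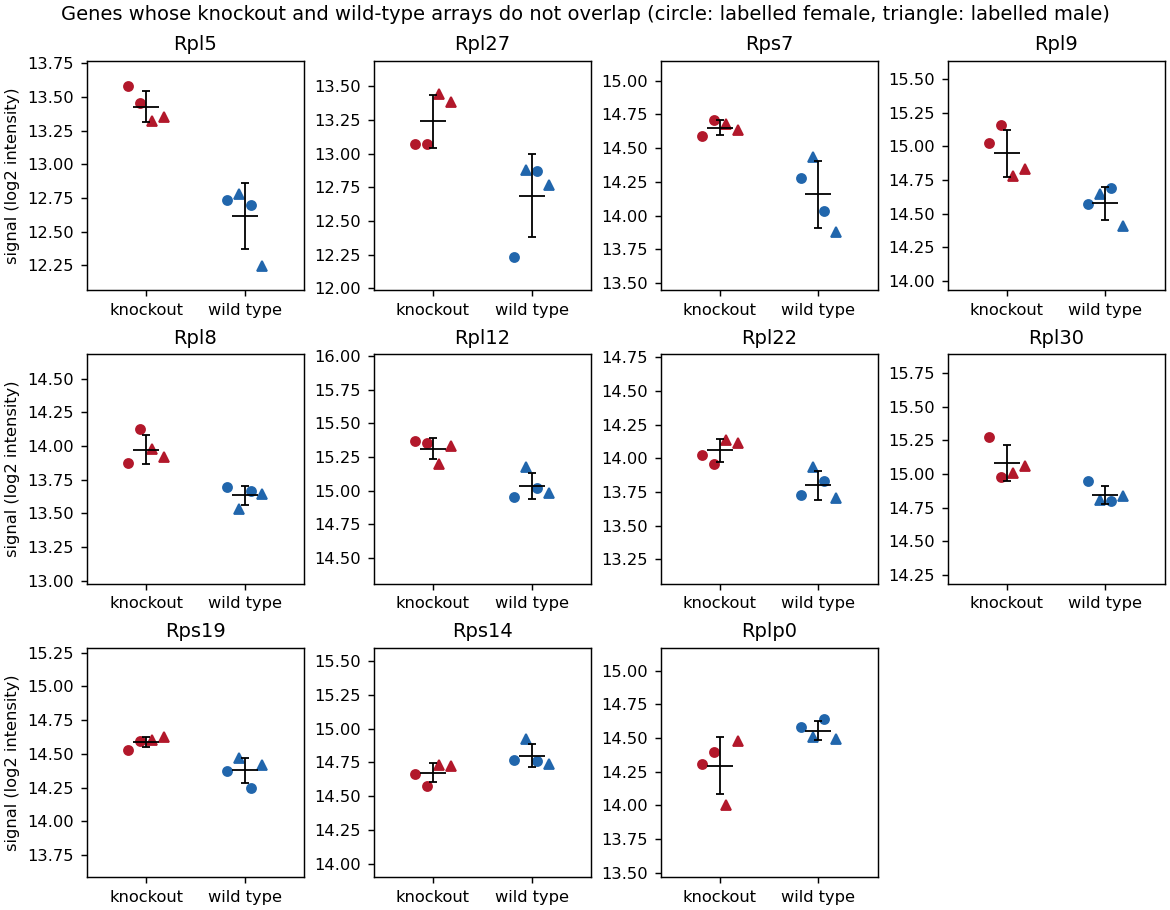
Signal (log2 intensity) of 11 genes whose genotypes do not overlap, in the knockout (red) and wild type (blue), with mean and SD (n = 4) in black; every panel spans the same height. Rpl5 shows the widest gap, and Rps14 and Rplp0 are the genes with the knockout below.

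Rps7, a small-subunit protein that also binds MDM2, read 14.59, 14.71, 14.68 and 14.63 in the knockout and 14.28, 14.44, 14.03 and 13.88 in the wild type. The difference was 0.50 ± 0.27 (adjusted p = 0.442 by limma). The knockout arrays lay within a narrow band above the wild type, and the other 2 features of Rps7 separated the genotypes too, at 0.78 and 0.59. The large-subunit gene Rpl27 read 13.07, 13.07, 13.44 and 13.38 against 12.23, 12.88, 12.87 and 12.76, a difference of 0.55 ± 0.27 (limma, adjusted p = 0.398). Its lowest wild-type array, WT-1, lay well below the other wild-type arrays. Rps19, the gene most often mutated in Diamond-Blackfan anaemia, read 14.53, 14.59, 14.60 and 14.62 against 14.37, 14.47, 14.25 and 14.42, a difference of 0.21. Its dimmest feature, at a mean of 8.45, differed by 0.88 with the genotypes apart, and its second, at 14.27, by 0.12 with overlap.

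Rpl9, a protein at the base of the stalk, read 15.02, 15.16, 14.78 and 14.83 in the knockout and 14.57, 14.64, 14.69 and 14.41 in the wild type. All 4 features of Rpl9 separated the genotypes in the same direction, at 0.37, 0.43, 0.65 and 0.75. Rpl8, a protein near the catalytic centre that has 1 feature, was at 13.87, 14.12, 13.98 and 13.91 against 13.69, 13.53, 13.67 and 13.64. Rpl9 and Rpl8 differed by 0.37 and 0.34, with adjusted p of 0.539 and 0.573 by limma.

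In Rpl12, Rpl22 and Rpl30 only the brightest feature separated the genotypes, and the other features overlapped. Rpl12 had a difference of 0.28, and its other features overlapped at 0.32 and 0.10. Rpl22, whose loss in mice blocks the development of alpha-beta T cells, read 14.02, 13.96, 14.14 and 14.12 against 13.73, 13.94, 13.83 and 13.71, a difference of 0.26, while its next feature was lower in the knockout by 0.31 with overlap. Rpl30 had a difference of 0.23, and 1 of its other 3 features was at -0.39. The small-subunit gene Rps3a differed by 0.50 ± 0.28 but overlapped, because WT-1 at 15.13 lay above Mim1-6 at 15.06 and Mim2-3 at 15.04, while the other 3 wild-type arrays read 14.58 to 14.60.

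The ribosomal stalk recruits the elongation factors, and all 3 stalk genes had a negative difference, of which 1 separated the genotypes. Rplp0, the base of the stalk, read 14.30, 14.40, 14.0003 and 14.48 in the knockout and 14.58, 14.51, 14.64 and 14.49 in the wild type. The groups stayed apart by a narrow margin, and the difference was -0.26 ± 0.26 (adjusted p = 0.681, limma). Its other 2 features were at -0.17 and -0.25, with overlap. The partner proteins Rplp1 and Rplp2 overlapped, at -0.05 and -0.01. Rps14, a protein of the small subunit's platform, read 14.66, 14.58, 14.73 and 14.72 against 14.77, 14.93, 14.76 and 14.74, a difference of -0.13. Its highest knockout array all but met its lowest wild-type array.

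Rpsa, the laminin receptor precursor that sits on the small subunit, differed by -0.25 and Rps3, at the mRNA entry channel, by -0.22, both with overlap. With the mean of all features of a gene these values turned to 0.04 and 0.06, and Rpl34 turned from -0.14 to 0.21. Rps6, the ribosomal protein that S6 kinases phosphorylate, read 15.28, 14.71, 15.41 and 15.50 in the knockout and 15.53, 15.17, 15.09 and 15.69 in the wild type. Both groups spread widely around a difference of -0.14 ± 0.29, which turned to 0.0040 without Mim1-6.

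By subunit, 36 of 49 large-subunit genes and 19 of 29 small-subunit genes were higher in the knockout, with medians of 0.11 and 0.04. Of 16 measured genes whose human counterparts are mutated in Diamond-Blackfan anaemia, 13 were higher, with a median of 0.14, and 4, Rpl5, Rpl27, Rps7 and Rps19, separated the genotypes upward, where 5.27% of all named genes and 14.4% of the 404 others of high signal did. Of 7 genes that line or sit at the peptide exit tunnel, 5 were higher, with a median of 0.03 and no separation. All named genes had a median of 0.06.

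The standard errors of these differences depended on the variance model. limma's common prior gave the 78 genes a median SE of 0.27, and a prior that follows the mean signal, with robust estimation, gave 0.14. Under that model 11 of the 78 genes were higher at an unadjusted p under 0.05, where 8.44% of all named genes and 24.3% of the 404 others of high signal were. The 11 included Rpl5, Rps7, Rps3a, Rpl27, Rpl9, Rpl8, Rpl12, Rps15a, Rps23 and Rps27. None was lower, where 7.9% of all named genes and 14.6% of the 404 others of high signal were. The lowest adjusted p among the 78 was 0.0827, for Rpl5, by limma with that prior.

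The labelled sexes gave 0 calls after adjustment in limma, among all 44170 features. At an unadjusted p under 0.05, 1 of the 78 genes was higher in males, where 4.6% of all named genes were, and 0 were lower, where 4.76% were. The gene was the muscle paralog Rpl3l, at 5.87, 5.62, 4.38 and 5.04 in the animals labelled female and 7.02, 6.10, 6.08 and 6.71 in those labelled male, all at low signal, with an adjusted p of 0.551. The genotype by sex interaction called 0 features after adjustment. None of the 78 genes had an unadjusted interaction p under 0.05, where 13.6% of all named genes did. All knockout females by label carry the name Mim1 and all knockout males Mim2, so sex and whatever else separates those prefixes cannot be told apart.

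The median genotype difference of the 78 genes was 0.10 within females and 0.07 within males. In both sexes 37 genes had a positive and 10 a negative difference, where 31.4% and 23.3% of all named genes were. Of the 404 other genes of high signal, 180 were positive and 92 negative in both sexes. Among bright genes, Rpl7 was at 0.47 in females and -0.15 in males, Rps3 at -0.50 and 0.06, and Rps2, a protein at the mRNA entry channel, at 0.14 and -0.36. The interaction did not pass for any of them.

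**Figure D4:**
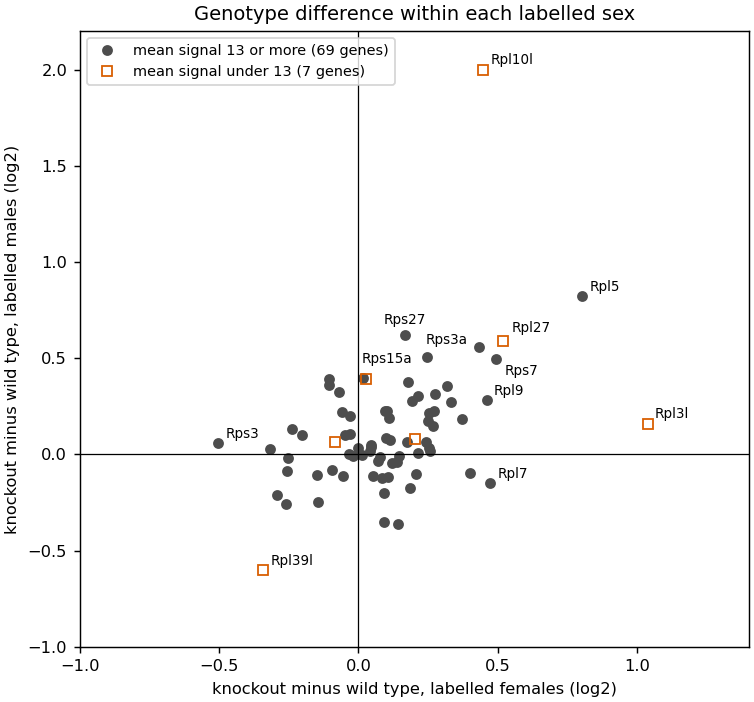
Knockout minus wild type difference (log2) within labelled females (x axis) and labelled males (y axis) for 76 of the 78 genes, by mean signal. The dots crowd around 0, Rpl5 lies at 0.80 and 0.82, and the dim genes Rpl10l, Rpl3l and Rpl39l scatter widely.

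Most of the genes were measured by more than 1 feature. Of the 78 genes, 25 had 1 feature and 53 had several, with 6 for Rps2. Of the 94 features other than the brightest, 59 were within 1 log2 unit of it and 22 were more than 4 under it, with a median gap of 0.33 and a largest of 9.63. In sign, 62 of the 94 matched the brightest feature of their gene, and their median difference was 0.13.

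The array also carries 134 features that RefSeq names as ribosomal protein pseudogenes, of 46 parent genes, which are processed copies that can be very similar to the mRNA of the parent. Signals of such features and of the parent may share transcripts, and the probe sequences were not used here, so the source of a signal cannot be told apart. This list was made after its values were seen. The features had a median signal of 13.91 and a median difference of 0.26. In the knockout 118 of 134 were higher, where 52.2% of all features and 57.92% of the 404 other genes of high signal were. The genotypes were apart upward in 23, where 4.7% of all features and 14.4% of those 404 were. They were apart downward in 0, where 2.64% and 5.45% were. Per parent, the median was above 0 for 43 of 46 and exceeded the parent's own difference for 34 of the 43 parents among the 78 genes. The brighter Rpl5 copy read 13.62, 13.27, 13.45 and 13.67 in the knockout and 12.75, 12.93, 12.44 and 12.26 in the wild type, with a difference of 0.91. The dimmer one overlapped, with a difference of 0.20, of -0.20 in females and 0.59 in males. The 6 features of Rpl9 copies were all higher, by 0.40 to 0.79, and 3 of them separated the genotypes. These differences did not pass adjustment in limma, with 10 of the 134 features higher and 1 lower at an unadjusted p under 0.05, where 6.98% and 6.88% of all features were.

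**Figure D5:**
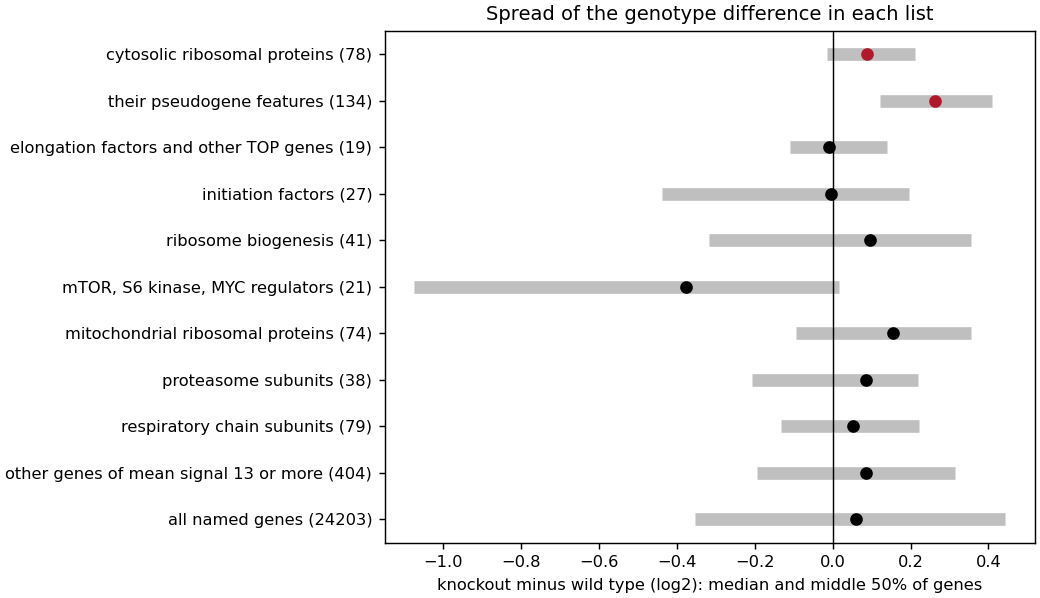
Median (dot) and interquartile range (bar) of the knockout minus wild type difference (log2) for the 78 ribosomal protein genes, their pseudogene features and related lists, with the number of genes or features in brackets. The ribosomal protein genes have a narrow bar around 0.09, and the pseudogene features lie to its right at 0.26.

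Of 5 paralogs and fusion genes outside the name rule 4 had a negative difference. Of these 5, 0 separated the genotypes, where 5.27% of all named genes did upward and 2.55% downward. An unadjusted p under 0.05 was found in 0, where 14.3% of all named genes had one. Fau, which encodes a fusion of a ubiquitin-like protein with Rps30, was at -0.06. The paralogs Rpl7l1, Rpl36al and Rpl22l1 were at -0.46, -0.19 and 0.21. Of 19 elongation factors and other genes with a TOP motif 9 were higher and 10 lower, with a median of -0.01. At an unadjusted p under 0.05 there were 0 of them, beside the same share of 14.3%. Eef1a1 and Eef2, the main elongation factors, were at 0.11 and -0.01, and Gnb2l1, the ribosomal scaffold RACK1, was at 0.15. The median was -0.0030 for 27 initiation factors. Of these 1 was higher and 2 were lower at that threshold, where 7.7% and 6.61% of all named genes were. For 41 ribosome biogenesis genes the median was 0.10, with 2 higher and 0 lower, beside the same shares of all named genes. Among the 2 was the nucleolar chaperone Npm1, at 12.41, 12.31, 12.96 and 12.96 in the knockout and 11.68, 11.74, 12.13 and 12.29 in the wild type.

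Among 21 regulators of the mTOR, S6 kinase and MYC axes 7 were higher and 14 lower, with a median of -0.38, and 4 were lower at an unadjusted p under 0.05, where 6.61% of all named genes were. Within females the median was 0.05, with 12 of 21 higher, and within males it was -0.46, with 5 higher. The mean signal of the list was 9.56 and 9.45 on the Mim1 arrays, 8.91 and 8.85 on the Mim2 arrays and 9.51 to 9.66 on the wild-type arrays. Larp1, the TOP mRNA-binding protein, read 11.55, 11.76, 8.93 and 9.66 in Mim1-5, Mim1-6, Mim2-2 and Mim2-3, and 11.75, 11.65, 11.80 and 11.88 in the wild type. Its difference was -0.11 in females and -2.47 in males, with both Mim2 arrays low. Mxi1, a MYC antagonist, read 9.09, 9.24, 8.75 and 8.80 against 10.53, 9.97, 10.54 and 10.01, a difference of -1.29 ± 0.25 (limma, adjusted p = 0.262). Mtor was at -0.06, with 0.61 in females and -0.72 in males. Myc was at 0.41, with -0.06 in females and 0.88 in males.

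Other large complexes had medians on the same side of 0, as did all named genes, at 0.06. The median difference was 0.16 for 74 mitochondrial ribosomal proteins, 0.09 for 38 proteasome subunits and 0.05 for 79 respiratory chain subunits. The median size of the difference, regardless of sign, was 0.14 for the 78 ribosomal protein genes, 0.30 for the mitochondrial ribosomal proteins, 0.22 for the proteasome, 0.18 for the respiratory chain and 0.27 for the 404 other genes of high signal. The median signals of the mitochondrial and proteasome lists, at 9.94 and 10.90, were lower than that of the cytosolic genes, and the spread was not matched for signal.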

How the data were processed

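Spleen RNA of 4 knockout and 4 wild-type mice was measured on 1-colour arrays, and groups and sexes were taken from the labels. The authors deposited a linear intensity per feature and array, made with RMA per the submitters' processing notes of unstated version, and a series table with 21856 of the 44170 features. Positions are MM9, per the file headers. Log2 values were used as they stood, without renormalization. Random probes gave the background level. Differences were fitted over all features with limma 3.58.1 in R 4.3.3 (lmFit, eBayes), two-sided, with genotype and sex as terms, and with their interaction in another fit, adjusted by Benjamini-Hochberg over 44170 features at 0.05; the fits were tested on simulated data. With 4 arrays per genotype, their number limits the precision.

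Of the 78 symbols, 76 equal those of GRCm38.p6, and the file's names were kept. The members and lists were chosen with earlier results of these data known. Named genes are those of highest and lowest signal, of largest difference per direction, spread and interaction, and those whose genotypes do not overlap. The stalk, 5S particle and paralog genes and Rps6 are named as well. Of other lists, some of the largest differences and some genes set by name are given, and members not named can differ more. Rps14, Rps19, Rpl30, Rps15a, Rps23, Rpl24, Rpl37 and the pseudogene features were named after their values were seen. In all, 18 alternatives covered source, normalization, filter, floor, variance model, array weights, sex term, features per gene and arrays left out. Some genes that the rule takes are named in no result here and are drawn singly in no plot; they stay in the counts and medians.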

Additional observations from a re-analysis of the deposited data

Results flagged for a closer look

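In 5 genes 1 wild-type array lay far from the other 3, by the share of the group's range that its gap takes up; 70 groups were examined, and chance gives about 1 in 20. Rpl5 read 12.25 in WT-4, below the other wild-type arrays at 12.70 to 12.78, which widens the gap to the knockout. Rps3a read 15.13 in WT-1, above the others at 14.58 to 14.60, and this array alone makes the genotypes of Rps3a overlap. Rpl10l read 7.58 in WT-3, Rps27l 10.43 in WT-1 and Rpl18 15.28 in WT-3, each above the other wild-type arrays.

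In 2 genes the knockout and wild-type arrays did not overlap within either labelled sex, and lay in opposite directions in the sexes. These were singled out for the separation, not for the size of the difference. With 2 arrays per genotype and sex, such separation can readily arise by chance, and its share over all named genes was not counted. Rpl32 was higher in female knockouts by 0.21 and lower in males, at -0.10, so that the male minus female value was -0.31. Rpl7a was at 0.40 and -0.09, with a male minus female value of -0.49. The interaction term of limma did not pass for either, at unadjusted p of 0.524 and 0.336.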

How the results depend on the processing

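Over 18 alternatives the median difference of the 78 genes stayed above 0, from 0.0213 to 0.12, and no alternative brought Rpl5 past the threshold, with a difference of 0.70 to 0.92 and an adjusted p of 0.0827 to 0.814. Quantile normalization gave the lowest median, 0.0213, and 5 genes apart upward in place of 10. Genes higher at an unadjusted p under 0.05, 1 in the reported fit, were 3 with a floor at the random probes, 4 with the mean of features, 2 in the authors' series table and 11 with a trended, robust variance. That variance called 16 features between genotypes and 578 for the interaction, where the series table, with fewer features, called 311 and the mean of features 1. The mean of features left 1 gene apart downward, in place of 2, and turned Rpsa to 0.0383, Rps3 to 0.0639 and Rpl34 to 0.21. Without both Mim2 arrays 16 genes were apart upward. Leaving out arrays can only keep or raise a count of genes apart, so the direction of those shifts was set by leaving them out. The share of all named genes apart under these alternatives was not counted. Leaving out 1 array at a time gave 10 to 17 genes apart upward (17 without WT-3), 2 to 4 downward (4 without Mim1-5), 1 to 2 genes higher at an unadjusted p under 0.05 (2 without Mim2-3 or WT-3) and 0 to 1 lower (1 without Mim1-6). Rps6 ranged from -0.28 to 0.0040, its value without Mim1-6. The cause of the other shifts was not tested. The median of all features was 0.03 as reported, 0.03 after quantile normalization and 0.01 after median centring. Signals near the ceiling and the number of arrays limit what can be seen. No paired analysis was possible because the labels give the genotypes no shared replicate numbers.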
